A study of Mus musculus with 8 samples.

Results

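The 39 genes described here encode proteins of the complement system and of blood clotting and clot removal, 19 of complement and 20 of coagulation and fibrinolysis. They were chosen by name for their place in these cascades, though with earlier results of these data known. The deposited count table of 40838 rows held all 39. All 39 were also among the 17438 genes that passed the filter on low counts. The RNA came from whole livers of C57BL/6 mice, an inbred laboratory strain, that ate a diet producing nonalcoholic steatohepatitis (NASH, fatty liver with inflammation) for 16 weeks. After 7 of those weeks the mice received an adeno-associated virus (AAV), and the diet went on for 9 weeks. In 4 samples, the Lpcat3 group, the virus carried Lpcat3, which encodes an enzyme that places polyunsaturated fatty acids in membrane phospholipids. In the 4 samples of the eGFP group, the control, it carried enhanced green fluorescent protein. Both transgenes were driven by TBG, a promoter active in hepatocytes, so the virus, the diet and the strain are common to both groups, and both keep the mouse's own Lpcat3 gene. Every liver was on the NASH diet, so the comparison is between 2 kinds of diseased liver. The labels do not say that the 4 samples of a group were separate animals, and age is not given in the sources used here. The p-values therefore measure the spread between these samples only.

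Complement is a set of plasma proteases and binding proteins that mark microbes and debris. C1q starts the classical pathway, mannose-binding lectins start the lectin pathway, and factors B and D amplify both through the alternative pathway. All routes meet at C3 and end in a pore of the terminal components. Coagulation is a parallel series of zymogens that ends when thrombin cuts fibrinogen to fibrin, and plasmin, made from plasminogen, dissolves the clot. Hepatocytes secrete most of these proteins into blood, which is why their loss marks failing liver function, whereas C1q and properdin come mainly from macrophages and other myeloid cells. Several of the hepatocyte genes are acute phase genes that respond to interleukin-6.

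Libraries held 22433625 to 25651874 counts. Levels are given as CPM (counts after scaling for library depth with TMM factors), with SD over n = 4 libraries. Where means are written as one against another, the Lpcat3 group comes first. Lpcat3 itself was at 158, 148, 133 and 173 CPM in eGFP replicates 1 to 4 and 274, 401, 465 and 311 CPM in Lpcat3 replicates 1 to 4, so each Lpcat3 library lay above each eGFP library, as its label states (log2 fold change 1.25, SE 0.17), although it did not pass edgeR's test across all genes (adjusted p = 0.164). It passed in DESeq2 (adjusted p = 9.77e-09), and in edgeR without Lpcat3 replicate 1 (adjusted p = 0.0477) or with library totals as the scaling (adjusted p = 0.0234). The sample codes in the labels carry the numbers 1290, 1317, 1344 and 1345, whose meaning is not given. Of these, 1290 and 1317 hold 3 eGFP libraries and 1 Lpcat3 library, and 1344 and 1345 hold 1 and 3, so the codes are unevenly spread over the groups. Differences within each pair of codes are given beside the main results, and each sets 1 library of a group against 3 of the other. Only 1290 and 1345 hold both groups, so a fit with a term for every code compares the groups within these codes alone. On the first principal component, with 40.9% of the variance, eGFP replicate 3 and Lpcat3 replicate 3 lay at opposite ends. The libraries coded 1290 or 1317, of both groups, had negative values on it (-46.1 to -4.75). Those coded 1344 or 1345, of both groups, had positive values (5.07 to 51), so this component also separated the pairs of codes. In whole liver RNA, fewer cells of a type and less RNA per cell cannot be told apart.

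The 4 members with the smallest p-values, all lower in the Lpcat3 group, were C1qa, C1qb, C1qc and Cfp, genes expressed by macrophages and other myeloid cells. Apart from these and Cfd, fitted log2 fold changes of the other 34 members ran from -0.21 for C9 to 0.81 for C8b. Of 39 members, 0 passed edgeR's quasi-likelihood test at an adjusted p of 0.05, where 1 gene (Egfros), or 0.00573% of all genes tested, passed. Smallest among the members was an adjusted p of 0.564, shared by several genes. At an unadjusted p under 0.05, these 4 members were lower and 0 higher, and over all genes the shares were 5.18% lower and 3.3% higher. The groups did not overlap for 1 member, C1qc, which was lower; over all genes 2.24% were lower without overlap. DESeq2 called the same 1 member, C1qc, at an adjusted p of 0.0492, and called 0.298% of the genes it tested. Fitted log2 fold changes were above 0 for 26 members and below 0 for 13, with a median of 0.064, beside a median of -0.0065 over all genes tested. That median turned to -0.055 with library totals as the scaling, which gave 10 higher and 29 lower while moving the median of all genes to -0.13, and to -0.019 without Lpcat3 replicate 3. A fit with a term for every code compares the groups only within codes 1290 and 1345. Its median was -0.12, with 6 higher and 33 lower, and without both libraries numbered 3 the median was -0.066, with 8 and 31.

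**Figure D1:**
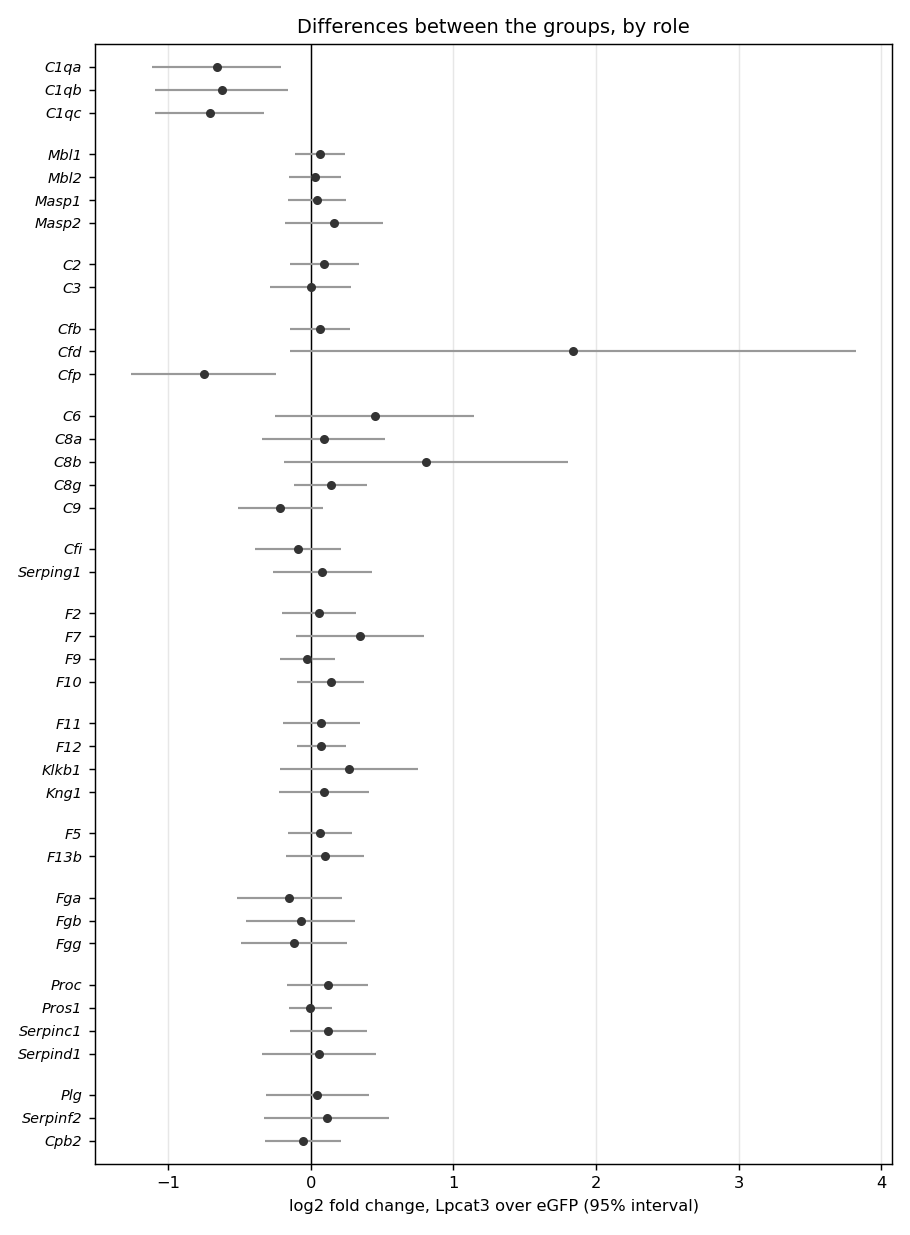
Fitted log2 fold change of each of the 39 members, Lpcat3 over eGFP (x axis, points), with 95% intervals (bars), ordered by role down the y axis. Only the intervals of C1qa, C1qb, C1qc and Cfp lie wholly below 0, none lies wholly above 0, and the widest is that of Cfd, from -0.15 to 3.82.

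Together the 39 genes took 2.38% ± 0.121 (SD, n = 4) of all counts in the eGFP libraries and 2.19% ± 0.236 in the Lpcat3 libraries, and the ranges overlapped (2.27 to 2.55% and 1.94 to 2.41%). Levels of different genes were compared as CPM per kilobase of exon, the mean over all 8 libraries. C3, on which the complement pathways converge, was highest at 1053 CPM per kilobase (928 to 1219.7 over libraries). The fibrinogen chain Fgg came next at 946 (742 to 1134), then Fga at 850.2 (647 to 996), and these 3 ranges overlapped. Fgb followed at 522, plasminogen (Plg) at 484 and prothrombin (F2) at 418 CPM per kilobase. At the other end stood F7, which encodes the zymogen that tissue factor activates, at 11.4, and properdin (Cfp) at 12.3 CPM per kilobase. The member with the least variable CPM was Pros1, encoding the anticoagulant protein S, with a coefficient of variation of 5.18% over 8 libraries, and the most variable was Cfd at 107%. The median was 14.3% over the members and 15.3% over all genes tested.

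**Figure D2:**
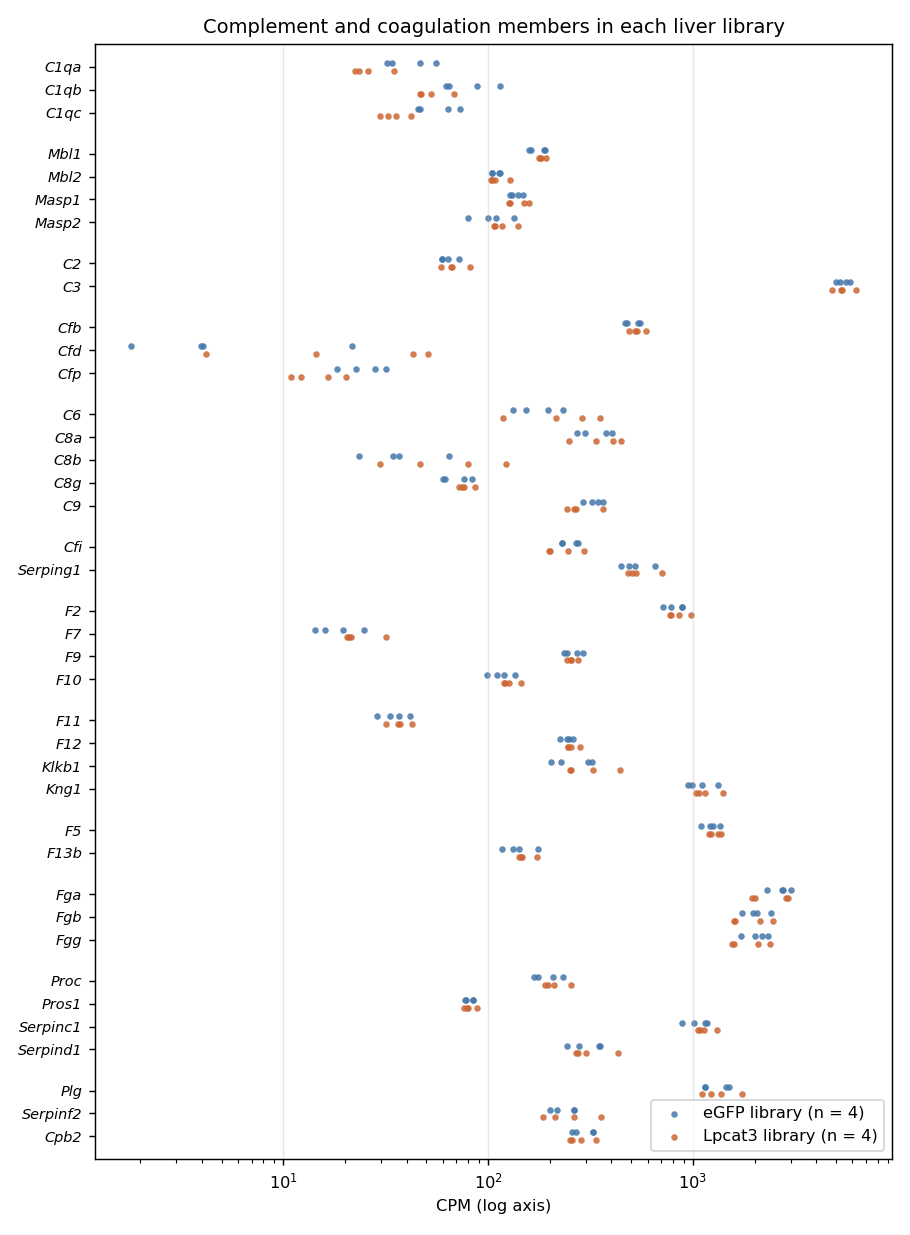
CPM of each of the 39 members (y axis, ordered by role) in the 4 eGFP and 4 Lpcat3 libraries (points), on a logarithmic x axis. Most genes form overlapping clusters of both colours, and the C1q chains and Cfp sit to the left in Lpcat3 libraries, and Cfd spreads from 1.81 to 51.1 CPM.

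C1qa, C1qb and C1qc encode the chains of C1q, the molecule that binds antibody complexes and dying cells and starts the classical pathway. C1qa was at 55.6, 32.2, 46.6 and 33.9 CPM in eGFP replicates 1 to 4 and 34.8, 25.9, 23.4 and 22.4 CPM in Lpcat3 replicates 1 to 4. C1qb was at 114, 64.2, 88.7 and 62.2 CPM in eGFP replicates 1 to 4 and 67.8, 52.3, 47.1 and 46.4 CPM in Lpcat3 replicates 1 to 4. C1qc was at 72.6, 46.6, 63.7 and 45.3 CPM in eGFP replicates 1 to 4 and 42.1, 35.4, 32.6 and 29.5 CPM in Lpcat3 replicates 1 to 4. In all 3 genes eGFP replicates 1 and 3 were highest and Lpcat3 replicate 4 was lowest, and Lpcat3 replicate 1 lay beside the lower eGFP libraries. Only C1qc separated the groups, since each of its Lpcat3 libraries was below each eGFP library. The group means were 26.6 ± 5.62 against 42.1 ± 11.1 CPM for C1qa, 53.4 ± 9.93 against 82.3 ± 24.3 CPM for C1qb and 34.9 ± 5.36 against 57 ± 13.4 CPM for C1qc (Lpcat3 against eGFP). The log2 fold changes were -0.66 (SE 0.20), -0.62 (SE 0.21) and -0.71 (SE 0.17), each with an edgeR adjusted p of 0.564, so none passed. In mean log2 CPM the C1qa difference was -0.33 among libraries coded 1290 or 1317 and -0.50 among those coded 1344 or 1345. That of C1qb was -0.35 among libraries coded 1290 or 1317 and -0.36 among those coded 1344 or 1345, and that of C1qc -0.51 among libraries coded 1290 or 1317 and -0.48 among those coded 1344 or 1345, so the direction was the same in both pairs of codes. Each of these differences sets 1 library of a group against 3 of the other. A fit with a term for the pair of codes gave log2 fold changes of -0.43, -0.37 and -0.51.

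The balance between the chains differed little between the groups. The ratio of C1qb to C1qa counts was 1.84 to 2.05 in the eGFP libraries and 1.95 to 2.07 in the Lpcat3 libraries, a coefficient of variation of 3.98% beside 34% for C1qb itself. The ratio of C1qc to C1qa was 1.31 to 1.45 and 1.21 to 1.39. Neither ratio passed a two-sided exact permutation test over 70 relabellings, adjusted over the 6 chain ratios compared in C1q, C8 and fibrinogen (adjusted p = 0.514 and 0.583 by exact test; the smallest unadjusted p this design allows is 0.0286).

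Macrophage markers were lower beside C1q. Of 13 markers of general and recruited macrophages, 12 were lower in the Lpcat3 group and 1 higher, with a median log2 fold change of -0.60 and 0 past the test, and their summed level was 296 to 579 CPM in the eGFP libraries and 205 to 378 CPM in the Lpcat3 libraries. The surface protein gene Adgre1 was at 28.5 ± 5.96 against 55.4 ± 21.8 CPM, and Csf1r, the receptor for the macrophage growth factor, at 59.97 ± 12.6 against 88.8 ± 18.3 CPM. Of 7 Kupffer cell markers, which identify resident liver macrophages, 5 were lower and 2 higher, with a summed level of 180.2 to 226 CPM in the eGFP libraries and 98.1 to 193 CPM in the Lpcat3 libraries. Cd5l was at 39 ± 8.34 against 71.9 ± 22.3 CPM and Vsig4, itself a complement receptor, at 30.7 ± 7.7 against 43 ± 4.23 CPM. None of these 4 named markers passed the test. The mean log2 CPM of the C1q chains was -0.64 in the Lpcat3 group relative to the eGFP mean, and that of the general macrophage markers -0.65. Over the 8 libraries these 2 scores had a Pearson r of 0.76 and a Spearman rho of 0.81, and without the 2 libraries farthest from the median, eGFP replicate 3 and Lpcat3 replicate 3, r was 0.78 over 6. Each pair of codes holds 4 libraries, too few for a correlation within it. Lpcat3 replicate 3 had the lowest general macrophage score (-1.69, the others -0.64 to 0.45), while its C1q score (-0.78) lay between those of Lpcat3 replicates 2 and 4. Its score of the Kupffer cell markers, 0.52, was in contrast the highest of the 8 libraries, followed by 0.49 in eGFP replicate 4. The next lowest general macrophage score, -0.64, was that of a control, eGFP replicate 4, below Lpcat3 replicates 1, 2 and 4. In a fit with a term for the pair of codes the macrophage markers had 4 above 0 and 9 below 0 (median -0.36). Without both libraries numbered 3, the macrophage markers had 5 above 0 and 8 below 0 (median -0.23), the Kupffer cell markers 0 above 0 and 7 below 0 (median -0.77) and the C1q chains 0 above 0 and 3 below 0 (median -0.55). The part of macrophage number in the C1q values was not tested.

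The promoters of C1qb and C1qc are shown because the levels of these chains kept nearly constant ratios to C1qa over the libraries. They are the 250 bases before the start of the gene, 5′ to 3′, from RefSeq on GRCm38.p6, an older build than the GRCm39 named in the submitters' processing notes. The C1qb window is chr4:136886201-136886450, minus strand, and the C1qc window is chr4:136892915-136893164, minus strand. Capitals mark GAGGAA, the core of the site bound by the myeloid factor PU.1, or its reverse complement.
C1qb: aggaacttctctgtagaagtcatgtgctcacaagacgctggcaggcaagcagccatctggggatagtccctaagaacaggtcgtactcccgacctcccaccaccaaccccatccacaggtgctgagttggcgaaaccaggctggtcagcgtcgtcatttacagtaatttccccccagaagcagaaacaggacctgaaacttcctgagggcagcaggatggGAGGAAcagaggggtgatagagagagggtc
C1qc: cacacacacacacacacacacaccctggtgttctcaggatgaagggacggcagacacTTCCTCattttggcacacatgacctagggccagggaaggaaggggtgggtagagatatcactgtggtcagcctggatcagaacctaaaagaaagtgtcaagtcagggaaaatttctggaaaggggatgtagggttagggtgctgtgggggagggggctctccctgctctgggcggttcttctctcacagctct
The table matched 30 of the 39 members and holds 32851 promoters. C1qa was not among the members matched, so its window is not shown. The core was searched after the values were seen. It occurred on either strand in 4 of 30 members and 23.3% of all promoters of that length, with 1 match in each of the windows above. The members with a match were C1qb, C1qc, F7 and Fgb, and the window of Cfp held none. A match describes letters and not a bound site.

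In the lectin pathway, Mbl1 and Mbl2 encode mannose-binding lectins, which recognize microbial sugars, and Masp1 and Masp2 the proteases they activate. Mbl1 was at 187, 189.6, 162 and 159 CPM in eGFP replicates 1 to 4 and 177, 191, 181 and 179 CPM in Lpcat3 replicates 1 to 4. The groups overlapped, with means of 182 ± 6.55 against 174 ± 16.1 CPM (log2 fold change 0.063, SE 0.079; edgeR adjusted p = 0.809; 95% interval -0.11 to 0.24). Masp2 was at 99.95, 109, 79.5 and 133 CPM in eGFP replicates 1 to 4 and 107, 117, 139.9 and 108 CPM in Lpcat3 replicates 1 to 4, lowest in eGFP replicate 3 and highest in Lpcat3 replicate 3 (log2 fold change 0.16, SE 0.15; edgeR adjusted p = 0.74; 95% interval -0.18 to 0.50). Mbl2 and Masp1 were at 111 ± 11.6 against 109 ± 5.23 CPM and 141 ± 15.8 against 136 ± 9.28 CPM (edgeR adjusted p = 0.912 and 0.891).

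C2, the protease of the classical and lectin convertase, was at 59.8, 63.6, 59.7 and 72.2 CPM in eGFP replicates 1 to 4 and 58.6, 65.9, 81.9 and 66.3 CPM in Lpcat3 replicates 1 to 4, with means of 68.2 ± 9.83 against 63.8 ± 5.89 CPM (log2 fold change 0.095, SE 0.11; edgeR adjusted p = 0.79). C3 was at 5214, 5859.6, 5003 and 5566 CPM in eGFP replicates 1 to 4 and 5269, 4764, 6264 and 5330.4 CPM in Lpcat3 replicates 1 to 4. The C3 group means were 5407 ± 625 and 5411 ± 379, and the 95% interval -0.29 to 0.28 on the log2 scale bounds the difference (log2 fold change -0.0011, SE 0.13; edgeR adjusted p = 0.999).

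In the alternative pathway, Cfb, encoding factor B, the protease subunit of the alternative convertase, was at 479, 537, 467 and 551 CPM in eGFP replicates 1 to 4 and 521, 487, 588 and 531 CPM in Lpcat3 replicates 1 to 4 (log2 fold change 0.066, SE 0.094; edgeR adjusted p = 0.832; 95% interval -0.14 to 0.28). Cfp encodes properdin, which stabilizes that convertase and is made by myeloid cells. It was at 31.6, 18.3, 28 and 22.6 CPM in eGFP replicates 1 to 4 and 16.5, 12.1, 20.3 and 10.9 CPM in Lpcat3 replicates 1 to 4. Lpcat3 replicate 3 lay above eGFP replicate 2, and the other Lpcat3 libraries lay below each eGFP library. The Cfp means were 15 ± 4.32 against 25.1 ± 5.86 CPM (log2 fold change -0.75, SE 0.23; edgeR adjusted p = 0.564). The differences were -0.61 among libraries coded 1290 or 1317 and -0.70 among those coded 1344 or 1345, and 4 of 4 neutrophil markers tested were lower as well, none past the test. Their summed level was 7.6 to 21.5 CPM in the eGFP libraries and 5.37 to 8.61 CPM in the Lpcat3 libraries, and without both libraries numbered 3 they had 1 above 0 and 3 below 0 (median -0.083). Their part in the Cfp values was not tested.

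Cfd encodes factor D, the protease that activates factor B, which is known as a product of fat cells (adipsin). It was the most variable member, at 1.81, 4.04, 3.97 and 21.8 CPM in eGFP replicates 1 to 4 and 4.17, 43.1, 51.1 and 14.4 CPM in Lpcat3 replicates 1 to 4. The 4 lowest values, 1.81 to 4.17 CPM, were those of eGFP replicates 1 to 3 and Lpcat3 replicate 1, the libraries coded 1290 or 1317. The libraries coded 1344 or 1345, of both groups, were at 14.4 to 51.1 CPM, so the pairs of codes did not overlap. How many of all genes split this way by code was not counted. The highest library was 28.3 times the lowest. The group means were 28.2 ± 22.5 against 7.9 ± 9.3 CPM, with an SD as large as or near the mean, and the difference did not pass (log2 fold change 1.84, SE 0.88; edgeR adjusted p = 0.604; 95% interval -0.15 to 3.82). In mean log2 CPM the difference was 0.43 among libraries coded 1290 or 1317 and 0.54 among those coded 1344 or 1345, and 3 of the 4 libraries coded 1290 or 1317 are eGFP. The log2 fold change was 0.57 in a fit with a term for the pair of codes, -0.080 in a fit with a term for every code, and, without eGFP replicate 4, 3.10. Among the adipocyte-type and steatosis genes, Adipoq was at 0 to 0.0742 CPM, Plin1 at 0 to 0.0826 CPM and Lep at 0 in every library. Adipoq, Plin1 and Lep were named outside the rule used for the other lists, and Fabp4 of the same list was well above 0. The part of fat cells in the Cfd values was not tested. Cfd had a Pearson r of -0.65 and a Spearman rho of -0.64 over 8 libraries with the 5 adipocyte-type and steatosis genes that could be tested, and r was -0.17 without Lpcat3 replicate 3 and eGFP replicate 1, so the relation rests on those libraries.

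**Figure D3:**
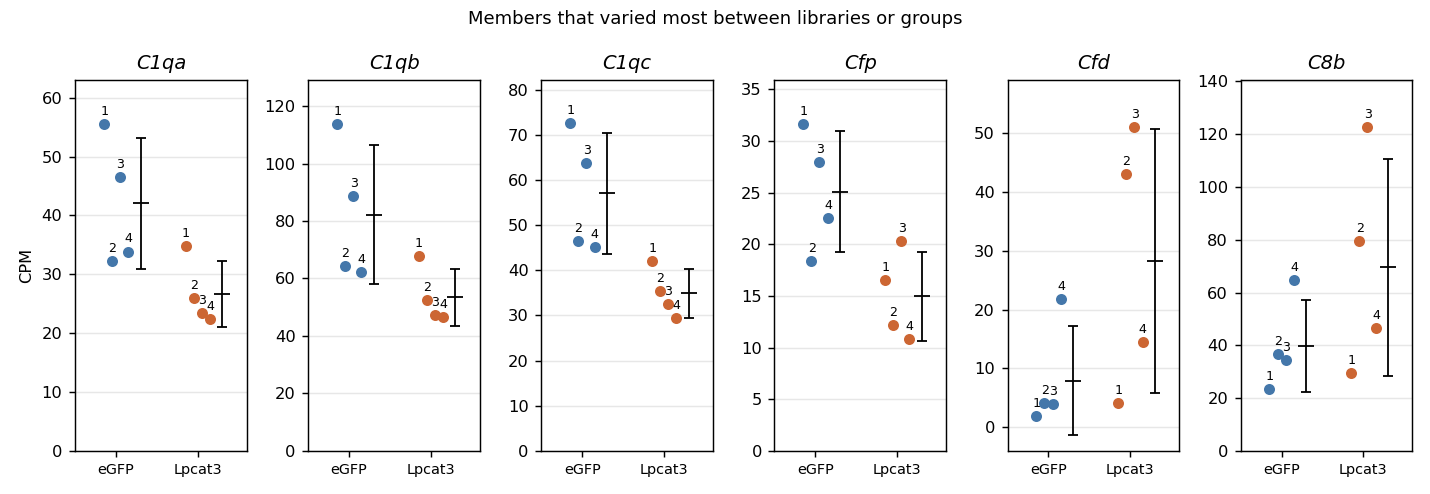
CPM (y axis, linear, a separate scale for each gene) of C1qa, C1qb, C1qc, Cfp, Cfd and C8b in each library (points with replicate numbers; bars are mean ± SD, n = 4). C1q chains and Cfp are lower in the Lpcat3 group by log2 fold changes of -0.62 to -0.75, and Cfd and C8b have high and low libraries in both groups. For Cfd and C8b the low libraries are those coded 1290 or 1317.

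The terminal components build the membrane pore. C8b, the beta chain of C8, was the second most variable member, at 23.3, 36.8, 34.4 and 64.6 CPM in eGFP replicates 1 to 4 and 29.5, 79.4, 123 and 46.6 CPM in Lpcat3 replicates 1 to 4. Lpcat3 replicates 3 and 2 and eGFP replicate 4 were highest and eGFP replicate 1 lowest, with 5.26 times between the extremes (log2 fold change 0.81, SE 0.44; edgeR adjusted p = 0.63; 95% interval -0.19 to 1.80). C8b was at 23.3 to 36.8 CPM in the libraries coded 1290 or 1317 and, without overlap, at 46.6 to 123 CPM in those coded 1344 or 1345. In mean log2 CPM the C8b difference between the groups was -0.067 among libraries coded 1290 or 1317 and 0.25 among those coded 1344 or 1345. Without Lpcat3 replicate 3 the log2 fold change was 0.38, and in a fit with a term for the pair of codes 0.14. The sign turned, to -0.22, in a fit with a term for every code. C6, which joins the complex after C5b, was at 243 ± 101 against 178 ± 43.8 CPM and overlapped between the groups (log2 fold change 0.45, SE 0.31; edgeR adjusted p = 0.669). It did not overlap between the pairs of codes, at 118 to 195 CPM in libraries coded 1290 or 1317 and 213 to 353 CPM in those coded 1344 or 1345. Its difference was -0.43 among libraries coded 1290 or 1317 and 0.27 among those coded 1344 or 1345, so the direction differed between the pairs of codes. Both differences set 1 library of a group against 3 of the other. C8a, the alpha chain, was at 273, 299, 377 and 402 CPM in eGFP replicates 1 to 4 and 249, 405, 447 and 337 CPM in Lpcat3 replicates 1 to 4 (log2 fold change 0.090, SE 0.19; edgeR adjusted p = 0.889), and C8g, the gamma chain, at 77.3 ± 6.16 against 70.2 ± 11.4 CPM (log2 fold change 0.14, SE 0.11; edgeR adjusted p = 0.705). C9, which polymerizes to form the pore, was at 291, 343, 322 and 363 CPM in eGFP replicates 1 to 4 and 262, 243, 365 and 269 CPM in Lpcat3 replicates 1 to 4. Among the Lpcat3 libraries replicate 3 had the highest C9 and the other 3 lay below each eGFP library (log2 fold change -0.21, SE 0.13; edgeR adjusted p = 0.652; 95% interval -0.51 to 0.083).

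C8 is assembled from 1 chain of each kind, but its RNAs did not keep a fixed ratio. C8b was 0.0855, 0.123, 0.0912 and 0.161 of C8a in eGFP replicates 1 to 4 and 0.119, 0.196, 0.275 and 0.138 in Lpcat3 replicates 1 to 4, a coefficient of variation of 42%, against 20.7% for C8g to C8a. The groups overlapped (adjusted p = 0.514 and 0.743 by the exact permutation test over the 6 ratios). The C8b to C8a ratio did not overlap between the pairs of codes. It was 0.0855 to 0.123 in the libraries coded 1290 or 1317, of both groups. In the libraries coded 1344 or 1345, of both groups, it was 0.138 to 0.275, so its variation followed the codes. The C8g to C8a ratio overlapped between the pairs of codes.

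Of the complement inhibitors, Cfi, the protease that cuts C3b, was at 229, 267, 229 and 276 CPM in eGFP replicates 1 to 4 and 247, 201, 294 and 199 CPM in Lpcat3 replicates 1 to 4 (log2 fold change -0.090, SE 0.13; edgeR adjusted p = 0.839). Serping1, the C1 inhibitor that also restrains the contact system of coagulation, was at 444, 524, 485 and 650.0 CPM in eGFP replicates 1 to 4 and 507, 527, 709 and 483 CPM in Lpcat3 replicates 1 to 4 (log2 fold change 0.082, SE 0.15; edgeR adjusted p = 0.875; 95% interval -0.26 to 0.43). Both were highest in Lpcat3 replicate 3, and the groups overlapped.

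The vitamin K-dependent zymogens of coagulation differed by small amounts. F2, encoding prothrombin, was at 782, 883, 710.3 and 882 CPM in eGFP replicates 1 to 4 and 855, 785, 982 and 771 CPM in Lpcat3 replicates 1 to 4 (log2 fold change 0.059, SE 0.11; edgeR adjusted p = 0.877; 95% interval -0.20 to 0.32). F10, whose product converts prothrombin to thrombin, was at 111, 119.7, 99 and 136 CPM in eGFP replicates 1 to 4 and 127, 119.7, 145 and 121 CPM in Lpcat3 replicates 1 to 4 (log2 fold change 0.14, SE 0.11; edgeR adjusted p = 0.683). F7 was at 16, 19.6, 14.2 and 24.8 CPM in eGFP replicates 1 to 4 and 21.5, 21, 31.9 and 20.5 CPM in Lpcat3 replicates 1 to 4, with 3 Lpcat3 libraries close together inside the eGFP range and replicate 3 above it (log2 fold change 0.35, SE 0.20; edgeR adjusted p = 0.641; 95% interval -0.10 to 0.80). Its difference was 0.39 among libraries coded 1290 or 1317 and -0.049 among those coded 1344 or 1345. F9, the factor missing in hemophilia B, was at 255 ± 13.4 against 259.5 ± 25.5 CPM (log2 fold change -0.024, SE 0.086; edgeR adjusted p = 0.938; 95% interval -0.22 to 0.17).

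In the contact system, which starts clotting on surfaces and releases bradykinin, 4 of 4 genes had fitted log2 fold changes above 0, from 0.073 to 0.27, and 0 passed. With library totals as the scaling there were 1 above 0 and 3 below 0 (median -0.032), so this direction depends on the scaling. F12 was at 248, 243, 224 and 259.7 CPM in eGFP replicates 1 to 4 and 254, 245, 280.4 and 245 CPM in Lpcat3 replicates 1 to 4 (log2 fold change 0.073, SE 0.077; edgeR adjusted p = 0.773; 95% interval -0.10 to 0.25). Klkb1, encoding plasma prekallikrein, was at 227, 306, 202 and 322 CPM in eGFP replicates 1 to 4 and 255, 325, 443 and 252 CPM in Lpcat3 replicates 1 to 4, highest in Lpcat3 replicate 3 and lowest in eGFP replicate 3 (log2 fold change 0.27, SE 0.21; edgeR adjusted p = 0.697). Kng1, encoding kininogen, the source of bradykinin, was at 994, 1104, 942 and 1322 CPM in eGFP replicates 1 to 4 and 1068, 1149, 1405 and 1029 CPM in Lpcat3 replicates 1 to 4 (log2 fold change 0.093, SE 0.14; edgeR adjusted p = 0.843). Mice carry the close copy Kng2, at 234 ± 15.8 against 234 ± 24.9 CPM, and how reads were divided between the copies is not given in the sources used here. F11 was at 36.9 ± 4.31 against 35 ± 5.4 CPM (edgeR adjusted p = 0.852). 

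F5, the cofactor that speeds thrombin formation, was at 1209.5, 1255, 1095 and 1349 CPM in eGFP replicates 1 to 4 and 1197, 1328, 1374 and 1231 CPM in Lpcat3 replicates 1 to 4 (log2 fold change 0.064, SE 0.10; edgeR adjusted p = 0.85; 95% interval -0.16 to 0.29). F13b, the carrier subunit of the fibrin-crosslinking factor XIII, was at 133, 142, 117 and 174 CPM in eGFP replicates 1 to 4 and 145, 146, 172 and 142 CPM in Lpcat3 replicates 1 to 4 (log2 fold change 0.10, SE 0.12; edgeR adjusted p = 0.801). The groups overlapped in both genes, and in F13b Lpcat3 replicate 3 stood above the other 3 Lpcat3 libraries. F13a1, which encodes the enzyme subunit and is made by myeloid cells, was at 0.987 ± 0.595 against 3.37 ± 3.8 CPM, with 9.06 CPM in eGFP replicate 3 alone, and is named after its values were seen.

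The fibrinogen genes Fga, Fgb and Fgg encode the 3 chains of the clot protein and lie next to each other in the genome. Their promoters are shown because the chains kept nearly constant ratios over the libraries. The windows are chr3:83025903-83026152, plus strand for Fga, chr3:83049864-83050113, minus strand for Fgb and chr3:83007474-83007723, plus strand for Fgg, each the 250 bases before the start, 5′ to 3′, from RefSeq on GRCm38.p6. Letters searched on both strands were CTGGGAA (the type II element of the interleukin-6 response), TTGCNNAA (a C/EBP site) and GAGGAA, and capitals mark the matches.
Fga: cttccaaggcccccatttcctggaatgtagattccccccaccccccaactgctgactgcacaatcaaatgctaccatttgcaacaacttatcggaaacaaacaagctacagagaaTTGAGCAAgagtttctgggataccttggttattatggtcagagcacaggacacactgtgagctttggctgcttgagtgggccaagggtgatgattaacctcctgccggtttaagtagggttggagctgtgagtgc
Fgb: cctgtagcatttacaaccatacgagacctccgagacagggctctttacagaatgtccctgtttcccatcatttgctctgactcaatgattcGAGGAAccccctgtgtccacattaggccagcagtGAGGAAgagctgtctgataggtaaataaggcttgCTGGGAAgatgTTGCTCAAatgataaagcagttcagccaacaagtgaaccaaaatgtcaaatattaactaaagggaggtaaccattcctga
Fgg: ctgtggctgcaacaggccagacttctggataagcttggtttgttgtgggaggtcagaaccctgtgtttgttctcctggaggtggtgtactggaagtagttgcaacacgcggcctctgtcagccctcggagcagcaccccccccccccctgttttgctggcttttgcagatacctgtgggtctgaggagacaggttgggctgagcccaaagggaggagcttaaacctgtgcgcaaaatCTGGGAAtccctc
The search also covered the FOXA site TGTTTAC, which none of the 3 windows holds. CTGGGAA occurred in 4 of 30 members and 9.1% of all promoters. TTGCNNAA occurred in 7 of 30 members and 9.56% of all promoters, and TGTTTAC in 2 of 30 members and 3.17% of all promoters. Fgb held both CTGGGAA and TTGCNNAA, Fga the latter and Fgg the former.

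Fga was at 2307, 2999, 2748 and 2713 CPM in eGFP replicates 1 to 4 and 2841, 1949, 2905 and 2011 CPM in Lpcat3 replicates 1 to 4, and Fgg at 1723, 2334, 2014 and 2174 CPM in eGFP replicates 1 to 4 and 2083, 1552, 2374 and 1590.3 CPM in Lpcat3 replicates 1 to 4. In both genes Lpcat3 replicates 2 and 4 were below each eGFP library, and Lpcat3 replicates 1 and 3 were among the higher libraries. The means were 2426 ± 517 against 2692 ± 287 CPM for Fga (log2 fold change -0.15, SE 0.16; edgeR adjusted p = 0.783; 95% interval -0.52 to 0.22), 1899.8 ± 398 against 2061 ± 261 CPM for Fgg (log2 fold change -0.12, SE 0.16; edgeR adjusted p = 0.83) and 1941 ± 424 against 2037 ± 283 CPM for Fgb (edgeR adjusted p = 0.904), so in each chain the SD of the Lpcat3 group was larger than the difference of the means. The ratio of Fgb to Fga was 0.713 to 0.804 in the eGFP libraries and 0.752 to 0.842 in the Lpcat3 libraries, and that of Fgg to Fga 0.733 to 0.801 and 0.733 to 0.817 (adjusted p = 0.514 and 0.583, exact permutation). The coefficients of variation of these ratios, 5.43% and 4.23%, were below the 16.1% of Fga itself. Of 13 acute phase genes outside the members, 12 were lower, with a median log2 fold change of -0.31, and none passed. That median was -0.12 in a fit with a term for the pair of codes and -0.17 without both libraries numbered 3. The acute phase score difference was -7.7e-04 among libraries coded 1290 or 1317 and -0.27 among those coded 1344 or 1345. Haptoglobin (Hp) was at 1135 ± 189.7 against 1412 ± 111 CPM and Orm2 at 77.7 ± 18.3 against 104 ± 15.9 CPM. The fibrinogen score and the acute phase score had a Pearson r of 0.44 and a Spearman rho of 0.43 over 8 libraries, with r of 0.74 without Lpcat3 replicates 2 and 3, the 2 farthest from the median. It was 0.84 without Lpcat3 replicate 3 alone and 0.19 without Lpcat3 replicate 2 alone.

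Among the anticoagulants, Serpinc1, encoding antithrombin, was at 1009.9, 1165, 884 and 1149 CPM in eGFP replicates 1 to 4 and 1128, 1056, 1311 and 1085 CPM in Lpcat3 replicates 1 to 4 (log2 fold change 0.12, SE 0.12; edgeR adjusted p = 0.757; 95% interval -0.15 to 0.39). Proc, encoding protein C, which inactivates factors V and VIII, was at 175, 207, 168 and 232 CPM in eGFP replicates 1 to 4 and 196, 209, 253 and 190.4 CPM in Lpcat3 replicates 1 to 4 (log2 fold change 0.12, SE 0.13; edgeR adjusted p = 0.777). Both were highest in Lpcat3 replicate 3 and lowest in eGFP replicate 3. Pros1, the cofactor of protein C, was at 80.8 ± 4.98 against 80.9 ± 4.01 CPM, with a 95% interval -0.15 to 0.15 on the log2 scale, and Serpind1, encoding heparin cofactor II, at 318 ± 76.2 against 305 ± 53.7 CPM (edgeR adjusted p = 0.996 and 0.92).

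In the plasmin system, Plg was at 1144, 1445, 1151 and 1506 CPM in eGFP replicates 1 to 4 and 1363, 1221, 1732 and 1104 CPM in Lpcat3 replicates 1 to 4 (log2 fold change 0.047, SE 0.16; edgeR adjusted p = 0.935; 95% interval -0.31 to 0.41). Serpinf2, the inhibitor of plasmin, was at 217, 263, 199.7 and 262 CPM in eGFP replicates 1 to 4 and 263, 213, 356 and 186 CPM in Lpcat3 replicates 1 to 4 (log2 fold change 0.11, SE 0.19; edgeR adjusted p = 0.864). Cpb2, a carboxypeptidase that protects fibrin from plasmin, was at 258, 324, 267 and 326 CPM in eGFP replicates 1 to 4 and 285, 252, 337 and 257 CPM in Lpcat3 replicates 1 to 4 (log2 fold change -0.055, SE 0.12; edgeR adjusted p = 0.892). Lpcat3 replicate 3 was highest in all 3 genes, and in none did the groups separate.

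The 34 members other than C1q, Cfd and Cfp were compared with 12 hepatocyte markers such as albumin (Alb). Their fitted log2 fold changes were above 0 for 25 and below for 9, with a median of 0.069, and the hepatocyte markers were above 0 for 12 of 12, with a median of 0.16 and none past the test. Those directions are relative to the scaling: with library totals the markers had 7 above 0 and 5 below 0 (median 0.054), and 5 above 0 and 7 below 0 (median -0.027) without both libraries numbered 3. In a fit with a term for the pair of codes they had 10 above 0 and 2 below 0 (median 0.083). The score of these members followed the hepatocyte score over the 8 libraries (Pearson r 0.92, Spearman rho 0.98; r 0.86 without eGFP replicate 3 and Lpcat3 replicate 3). As deviations from the group means r was 0.94, so the relation was also present among libraries of the same group. The member score was lowest in eGFP replicate 3 (-0.14) and highest in Lpcat3 replicate 3 (0.35) and eGFP replicate 4 (0.20). The score difference was 0.079 over all libraries, 0.047 among libraries coded 1290 or 1317 and -0.088 among those coded 1344 or 1345. Libraries share the scaling by which both scores are computed. The part of hepatocyte content in the members' values was not tested.

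**Figure D4:**
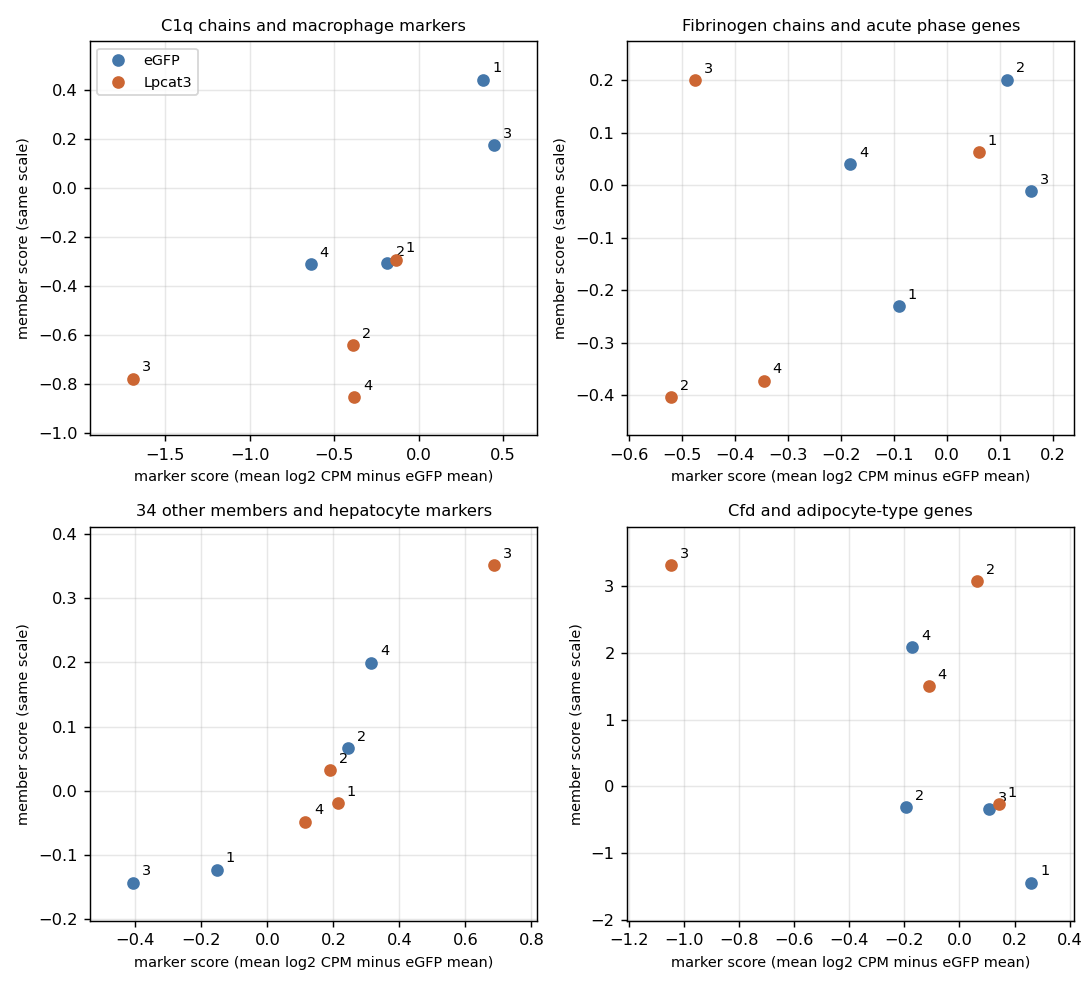
Scores of member groups (y axes) against marker scores (x axes) in the 8 libraries (points numbered by replicate); a score is the mean log2 CPM of a list minus its eGFP mean. The tightest relation is that of the 34 other members with hepatocyte markers (Pearson r 0.92), and Lpcat3 replicate 3 lies at the edge of each panel's x axis or, for acute phase genes, next to the edge.

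Genes of the same pathways outside the 39 were read from 5 lists, in which 0 of 72 tested genes passed in edgeR and 0 in DESeq2. Of 17 other soluble complement genes, 10 had log2 fold changes above 0 and 7 below 0 (median 0.038), and with library totals 6 above 0 and 11 below 0 (median -0.082). Among these, C4b, the next substrate after C1, was at 1135 ± 156 against 1278 ± 78.1 CPM, though reads of C4b and its close copy C4a may be divided uncertainly, and the lectins Colec10 and Colec11 were at 40.9 ± 6.52 against 47.5 ± 2.27 CPM and 19.3 ± 1.23 against 21.2 ± 2.68 CPM. Of 12 complement receptors and membrane regulators, 1 had log2 fold changes above 0 and 11 below 0 (median -0.54), with 7 lower at an unadjusted p under 0.05 beside 5.18% of all genes. The list shares Vsig4 with the Kupffer cell markers, and the part of macrophage number in its values was not tested. C3ar1, the receptor for the fragment C3a, was at 32.5, 21, 32.5 and 17.9 CPM in eGFP replicates 1 to 4 and 16.3, 15.6, 8.87 and 16.9 CPM in Lpcat3 replicates 1 to 4. C5ar2, a receptor for C5a, was at 5.89, 5.15, 5.64 and 5.08 CPM in eGFP replicates 1 to 4 and 4.3, 2.92, 3.31 and 3.82 CPM in Lpcat3 replicates 1 to 4. The groups did not overlap in either gene or in Cr2, the receptor for C3d on B cells, at 1.79 ± 0.135 against 2.71 ± 0.231 CPM, and each had an edgeR adjusted p of 0.564. These 3 were picked for their small p, and 2.24% of all genes were lower without overlap. Without both libraries numbered 3, the receptors had 2 above 0 and 10 below 0 (median -0.30). The mean log2 CPM of the receptors in eGFP replicate 4, relative to the eGFP mean, was -0.19, above those of the 4 Lpcat3 libraries, whereas its macrophage score was below those of Lpcat3 replicates 1, 2 and 4.

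Of 21 other coagulation genes, 9 had log2 fold changes above 0 and 12 below 0 (median -0.0089), and with library totals 3 above 0 and 18 below 0 (median -0.12). F8, which in liver is made by endothelial cells, was at 112, 109, 105 and 111 CPM in eGFP replicates 1 to 4 and 97.5, 75.7, 92.4 and 83.9 CPM in Lpcat3 replicates 1 to 4, and Tfpi, the inhibitor of the tissue factor pathway, was at 20.5, 17.2, 17.9 and 17.5 CPM in eGFP replicates 1 to 4 and 16.4, 13, 12.1 and 12.7 CPM in Lpcat3 replicates 1 to 4. In both genes each Lpcat3 library was below each eGFP library, and neither passed (log2 fold change -0.32, SE 0.083; edgeR adjusted p = 0.564 for F8; log2 fold change -0.43, SE 0.11; edgeR adjusted p = 0.564 for Tfpi). Both were picked for their small p, and over all genes 2.24% were lower without overlap. Procr, the endothelial receptor of protein C, was at 0.746 ± 0.307 against 1.47 ± 0.745 CPM. Of 8 liver endothelial markers, 7 were lower with a median log2 fold change of -0.20 (summed level 461 to 515 CPM in the eGFP libraries and 386 to 479.9 CPM in the Lpcat3 libraries), among them Pecam1 at 27.3 ± 4.3 against 34.4 ± 3.24 CPM and Stab1 at 76 ± 8.86 against 89 ± 4.9 CPM, none past the test. In a fit with a term for the pair of codes the endothelial median was -0.12. Their part in the values of F8 and Tfpi was not tested. Of 10 other fibrinolysis genes, 2 had log2 fold changes above 0 and 8 below 0 (median -0.49). Without both libraries numbered 3 they had 4 above 0 and 6 below 0 (median -0.048), and in a fit with a term for the pair of codes 3 above 0 and 7 below 0 (median -0.069). Among them were Serpine2, a thrombin inhibitor, at 11.9 ± 4.88 against 6.32 ± 3.85 CPM, Plau, the urokinase activator of plasminogen, at 3.39 ± 1.06 against 5.33 ± 2.53 CPM and Plgrkt, a plasminogen receptor, at 3.94 ± 0.786 against 4.83 ± 0.507 CPM.

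Of 12 transcription factors and signalling genes that act on hepatocyte secretory genes, 8 had log2 fold changes above 0 and 4 below 0 (median 0.14), with library totals 6 above 0 and 6 below 0 (median 0.027), and without both libraries numbered 3 8 above 0 and 4 below 0 (median 0.073). Foxa1, a pioneer factor of liver genes, was at 52.6, 47.5, 47.5 and 57.2 CPM in eGFP replicates 1 to 4 and 64, 66.5, 58 and 64.4 CPM in Lpcat3 replicates 1 to 4. Cebpb, a factor of the acute phase response, was at 45, 46.7, 51.7 and 51.1 CPM in eGFP replicates 1 to 4 and 55.3, 70.4, 72.6 and 56 CPM in Lpcat3 replicates 1 to 4, and Foxa3 at 33.7 ± 4.29 against 26.8 ± 1.27 CPM. Each Lpcat3 library was above each eGFP library in these 3 genes, and each had an edgeR adjusted p of 0.564, so none passed. They too were picked for their small p, and over all genes 1.93% were higher without overlap. The groups overlapped in Hnf4a (453 ± 31 against 439 ± 22.6 CPM), a gene picked with its values in view.

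The remaining marker lists were read beside these results, and 0 of their genes passed in edgeR. Of 7 tested T, NK and B cell markers, 6 were lower, with Cd3e at 0.774 ± 0.228 against 1.23 ± 0.625 CPM and Nkg7 at 0.493 ± 0.244 against 0.945 ± 0.605 CPM. Of the neutrophil markers, Csf3r was at 5.13 ± 0.862 against 8.2 ± 3.33 CPM and S100a8 at 0.912 ± 0.292 against 1.76 ± 1.28 CPM. Of 9 hepatic stellate cell markers, 6 were lower, Pdgfrb among them at 22.2 ± 5.47 against 27.8 ± 3.79 CPM, and without both libraries numbered 3 there were 6 above 0 and 3 below 0 (median 0.046). Of 5 cholangiocyte markers, 4 were higher, with Epcam at 3.94 ± 1.95 against 2.1 ± 0.642 CPM and Krt7 at 1.47 ± 0.682 against 0.8 ± 0.299 CPM. Of the adipocyte-type and steatosis genes, Mogat1 was at 4.52 ± 1.55 against 6.57 ± 1.56 CPM and Fabp4 at 18.6 ± 6.72 against 24.9 ± 7.72 CPM, and of the hepatocyte markers Tat was at 1089.5 ± 445 against 577 ± 234 CPM and Cyp2e1 at 8145 ± 1717 against 5699.9 ± 1853 CPM.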

How the data were processed

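The authors deposited unnormalized read counts by gene as 1 table with 40838 rows and 8 libraries. Per the labels' protocols the libraries were stranded and read from 1 end after removal of ribosomal RNA. The submitters' processing notes name bcl2fastq 2.20, DESeq2 and GRCm39; the sources used here do not give the aligner, the counter or the strand setting, so reads of overlapping genes (for example Serpind1 within Pi4ka, or C8g beside Fbxw5) cannot be told apart. Symbols came from a RefSeq table of GRCm38, matching 39397 rows.

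After filterByExpr (minimum count 10), 17438 genes were fitted with edgeR 4.0.16 in R 4.3.3 (glmQLFit, robust; glmQLFTest, two-sided; TMM; group as the only term; Benjamini-Hochberg over all genes, threshold 0.05). Intervals of log2 fold changes use the same fit. Log2 CPM used a prior count of 2. Exon lengths are unions of protein-coding basic transcripts in GENCODE M21. DESeq2 1.42.0 and limma 3.58.1 were alternatives. The steps were tested on counts simulated with differences between the groups and none between the codes. That test therefore does not cover the uneven spread of the codes over the groups. Members, lists and tests were chosen with earlier results of these data known. Per-library values are given for the 2 members of each role with the smallest unadjusted p and the member with the highest CPM, and the other members are given by means or ranges. From each related list up to 3 genes with the smallest p were named, and from each marker list up to 2; Lpcat3 checks the labels. A listed gene and a planned motif are not reported here. Because the members were so chosen, relations between scores carry no p-values, although tests had been planned, and too few libraries share a code for a relation within codes.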

Additional observations from a re-analysis of the deposited data

Results flagged for a closer look

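In 8 of 160 groups of 4 values examined (members, the named related and marker genes, Lpcat3 and the chain ratios), 1 library lay far from the other 3 by Dixon's test at the 95% level, and chance flags about 1 in 20. Cfd in eGFP replicate 4 was at 21.8 CPM, with the other 3 of its group at 1.81 to 4.04 CPM. F7 in Lpcat3 replicate 3 was at 31.9 CPM, with the other 3 of its group at 20.5 to 21.5 CPM. F13b in Lpcat3 replicate 3 was at 172 CPM, with the other 3 of its group at 142 to 146 CPM. C3ar1 in Lpcat3 replicate 3 was at 8.87 CPM, with the other 3 of its group at 15.6 to 16.9 CPM. S100a8 in Lpcat3 replicate 3 was at 0.479 CPM, with the other 3 of its group at 1.02 to 1.12 CPM. Colec11 in Lpcat3 replicate 2 was at 21.1 CPM, with the other 3 of its group at 18.4 to 18.8 CPM. Serpine2 in Lpcat3 replicate 1 was at 4.6 CPM, with the other 3 of its group at 13.8 to 15 CPM. Hp in Lpcat3 replicate 1 was at 1418 CPM, with the other 3 of its group at 1026 to 1072 CPM. In F7, F13b, C3ar1 and S100a8 the library apart was Lpcat3 replicate 3. It also had the lowest general macrophage score, the highest Kupffer cell score and the highest hepatocyte score. These values share 1 library and are not independent.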

How the results depend on the processing

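Over all genes edgeR called 1, or 3 with library totals, 2 without robust estimation, 0 without a filter, with the replicate number as a block, with either code term or without both libraries numbered 3, and 0 to 7 with 1 library left out; DESeq2 called 51. Of the members 0 were called under each alternative in edgeR or limma-voom (lowest adjusted p 0.28) and 1, C1qc, in DESeq2. C1qa, C1qb, C1qc and Cfp were lower under every alternative run. The median of the members ran from -0.019 to 0.11 with 1 library left out, and was -0.066 without both libraries numbered 3 and -0.12 in a fit with a term for every code. Libraries numbered 1 share code 1290 and those numbered 4 share code 1345, but the labels do not say what a number or code marks, and same-numbered libraries did not all deviate together (r 0.28, -0.069, -0.40 and -0.12 for numbers 1 to 4; the libraries numbered 1 correlated best with each other, and no other pair did), so the numbers were not taken as pairs. The replicate block left 0 members called and 0 chain ratios, where a test over 4 pairs cannot reach 0.05; with 1 library left out 0 ratios were called. The relations of scores ran, with 1 library left out, from 0.70 to 0.85 for C1q, 0.19 to 0.84 for fibrinogen, 0.85 to 0.95 for the 34 members and -0.85 to -0.46 for Cfd; as deviations from the group means r for C1q was 0.66. Most turns below are of genes near 0, and their cause was not tested. The fit with a term for every code compares the groups only within codes 1290 and 1345, which hold both. With DESeq2-type size factors the sign turned for C3 (0.0034) and Pros1 (0.0029). With library totals as the scaling the sign turned for Mbl1 (-0.060), Mbl2 (-0.094), Masp1 (-0.081), C2 (-0.028), Cfb (-0.052), C8a (-0.042), Serping1 (-0.038), F2 (-0.059), F11 (-0.039), F12 (-0.046), Kng1 (-0.025), F5 (-0.055), F13b (-0.012), Serpind1 (-0.059), Plg (-0.071) and Serpinf2 (-0.011). Without a filter on low counts the sign turned for C3 (4.5e-05) and Pros1 (3.2e-04). In DESeq2 the sign turned for C3 (0.0034) and Pros1 (0.0029). In a fit with a term for the pair of codes the sign turned for Mbl2 (-0.019), Masp1 (-0.049), C2 (-0.038), C6 (-0.070), C8a (-0.18), Serping1 (-0.059), F11 (-0.0092), Kng1 (-0.035), F5 (-0.015), F13b (-0.013), Pros1 (0.018), Serpind1 (-0.027) and Plg (-0.013). In a fit with a term for every code the sign turned for Mbl2 (-0.089), Masp1 (-0.14), Masp2 (-0.11), C2 (-0.096), Cfd (-0.080), C6 (-0.019), C8a (-0.22), C8b (-0.22), Serping1 (-0.14), F2 (-0.061), F11 (-0.13), F12 (-0.0072), Klkb1 (-0.19), Kng1 (-0.14), F5 (-0.081), F13b (-0.076), Proc (-0.098), Pros1 (0.012), Serpinc1 (-0.0049), Serpind1 (-0.20), Plg (-0.15), Serpinf2 (-0.13) and Pdgfrb (0.027). Without both libraries numbered 3 the sign turned for Mbl2 (-0.066), Masp1 (-0.049), Masp2 (-0.042), C2 (-0.036), Cfb (-0.025), Serping1 (-0.094), F2 (-0.079), F11 (-0.081), F12 (-0.012), Klkb1 (-0.040), Kng1 (-0.075), F5 (-0.022), F13b (-0.048), Proc (-0.044), Serpinc1 (-0.024), Serpind1 (-0.22), Plg (-0.15) and Serpinf2 (-0.17). Leaving out 1 library at a time turned the sign in at least 1 case for Pros1 (-0.045 to 0.024), Plg (-0.093 to 0.13), C3 (-0.079 to 0.055), Fgb (-0.20 to 0.023), F2 (-0.019 to 0.10), F11 (-0.011 to 0.17), Serpind1 (-0.12 to 0.14), F9 (-0.071 to 0.034), Mbl2 (-0.045 to 0.063), Masp1 (-0.019 to 0.090), C2 (-0.0047 to 0.16), C8a (-0.032 to 0.23), Serping1 (-0.056 to 0.20), Kng1 (-0.011 to 0.20), Serpinf2 (-0.094 to 0.24) and C8g to C8a (ratio) (-0.075 to 0.18). Fcnb, F2rl3, Serpinb2 and 7 markers were too low to be tested. The counts of each list under other settings and the search for GAGGAA were chosen after seeing the data.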
